A study of Danio rerio with 24 samples.

Results

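Primordial germ cells (PGCs), the founder cells of the zebrafish germline, were profiled at 1 day post-fertilization (dpf) after injection of a morpholino against smad1 (smad1-KD, 2 libraries) or of a control morpholino (control-MO, 2 libraries). These 4 of the 24 samples of the series were taken by their labels alone. All 4 carry the wild-type genotype label and came from embryos kept in Holtfreter's water, so the injected oligomer is the labelled difference. The PGCs were isolated by flow sorting on a fluorescent germ cell transgene, whose driver the sources used here do not give, and their RNA was amplified with a full-length kit made for single cells before a transposase-based library step. Another way of removing smad1 at the same stage, a germline-restricted knockout (smad1-cKO, 3 libraries, with 3 control libraries), and the same morpholinos at 75% epiboly (2 smad1-KD and 2 control-MO libraries) enter only where the differences themselves were compared.

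A morpholino is a synthetic antisense oligomer that blocks translation or splicing of the transcript it pairs with, and after injection into the early embryo it is inherited by germline and soma alike. Smad1, Smad5 and Smad9 are the transcription factors that bone morphogenetic protein (BMP) receptors phosphorylate. With Smad4 they enter the nucleus and act on genes such as the id and msx families, while the inhibitory Smads and Bambi feed back on the receptors. In the zebrafish gastrula BMP activity sets the ventral side of the body plan and later helps to shape the tail, and PGCs, which form from inherited germ plasm, migrate towards the source of the chemokine Cxcl12a while the surrounding body takes shape.

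Expression was given as TPM, in which each transcript's length-scaled share is expressed against a fixed library total. TPM keep no read depth, so the depth behind each value is unknown and no counting error can be attached. The libraries listed 23514 and 22217 of 32520 features above 0 in smad1-KD PGCs, against 24547 and 24361 in control-MO PGCs. Values are given for replicate 1 and then replicate 2 of each group throughout. No label ties the libraries to different clutches, and the p-values from limma therefore reflect only how far these libraries vary, which could be technical variation.

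The libraries differed among themselves in ways the injected oligomer does not label. On the log2(TPM + 1) scale, Pearson's r over 17141 genes was 0.839 between the smad1-KD libraries and 0.923 between the control-MO libraries, whereas KD replicate 1 and control-MO replicate 1 stood at 0.921. Some germ cell markers followed the replicate number. One was nanos3, which protects germ cell fate, with 3898 and 824 TPM in KD and 4165 and 1059.9 TPM in control-MO PGCs. Another was ca15b, a PGC-enriched carbonic anhydrase transcript, with 381 and 38.4 TPM in KD and 353 and 18.9 TPM in control-MO PGCs. Both genes were therefore high in both first replicates and low in both second ones. Not all markers did so. Values of dazl were 80.4 and 22.3 TPM in KD, against 200.1 and 121 TPM in control-MO libraries. Those of piwil1 were 11 and 4.02 TPM in KD, against 28.8 and 25.7 TPM in control-MO libraries. For dazl and piwil1 both KD values lay below both control-MO values. All 7 germ cell markers examined were above 0 in every library. Markers of other cells also split by replicate. The 26 myeloid markers matched summed to 171 and 4701 TPM in KD and 303 and 2935 TPM in control-MO libraries, and the 27 ionocyte and hatching gland markers to 23508 and 1219 TPM in KD and 9375 and 1272 TPM in control-MO libraries. KD replicate 2 stood furthest apart, with an actin-monomer-binding thymosin transcript, tmsb4x, at 1355 and 23596 TPM in the KD libraries against 2244 and 10276 TPM in the control-MO libraries. Most medians of the gene lists are therefore given with and without each KD library, and for the Hox sets the counts are.

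No gene passed the test. The moderated test of limma on log2(TPM + 1), over the 17141 genes that averaged 1 TPM or more in these libraries and with Benjamini-Hochberg adjustment, called 0 genes (0%) at an adjusted p of 0.05. The smallest adjusted p was 0.0505, and 1697 genes had an unadjusted p under 0.05, of which 188 were higher (1.1%) and 1509 lower (8.8%) in KD PGCs. The count of 0 became 41 without control-MO replicate 1, 5 without control-MO replicate 2, 43 with a minimum mean of 5 TPM and 10 with no intensity trend in the fit. Both KD libraries lay above both control-MO libraries for 954 genes (5.57%) and below both for 5953 genes (34.7%). The median of all genes was itself -0.38 on the log2 scale, with 23.8% of genes above 0. Scaling the TPM by a trimmed mean of log ratios (TMM-style) moved that median to 0.04 and the shares to 22.1% higher and 21% lower, so differences close to -0.38 change sign with the scaling. Between groups of 2, an exact permutation test cannot give a two-sided p under 0.333. From here on, "higher" and "lower" mean that both KD libraries lay beyond both control-MO libraries, and the background for each count is 5.57% of genes higher and 34.7% lower. For counts with TMM-style scaling the background is 22.1% higher and 21% lower. Without KD replicate 2 a single KD library has to lie beyond the controls, and the background becomes 31.6% higher and 42% lower with a median of -0.08. Without KD replicate 1 it becomes 13.3% higher and 74.4% lower with a median of -0.70.

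Another estimate of error took the spread from all 20 RNA libraries of the series, with the same means. It called 259 genes, 40 of them higher (0.233%) and 219 lower (1.28%) in KD PGCs, and its adjusted p is named as the 20-library p wherever it is given. That spread includes the 75% epiboly libraries, where genes not yet expressed hardly vary, so for such genes it can understate the error at 1 dpf. The 20-library p of genes restricted to 1 dpf carries this limit throughout. Of the gene lists described below, muscle had 16 members called. Of its 49 members tested, 6 passed the filter in the morpholino comparison at 75% epiboly, and tnnt3b was listed at 0 in every library there. Lists with 0 members called included the embryonic globins and the stress response, piRNA, G1/S, germ plasm and germ cell migration lists.

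The smad1 transcript, the target of the morpholino, stood at 170.3 and 70.28 TPM in the KD libraries, against 201 and 193 TPM in the control-MO libraries. Its log2 difference was -0.84 (SE 0.53) with a limma adjusted p of 0.673, and -0.21 without KD replicate 2. A morpholino need not lower its target RNA, so this level does not measure the block. Of the partner Smads, smad9 had 43.9 and 24 TPM in the KD libraries, against 64 and 44.7 TPM in the control-MO libraries, and both KD values were below both control-MO values, though KD replicate 1 was within 1 TPM of control-MO replicate 2. For smad5, the values were 28.6 and 15 TPM in the KD libraries, against 22 and 24.7 TPM in the control-MO libraries, and the groups overlapped. The smad5 log2 difference of -0.16 became 0.31 with TMM-style scaling.

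The list of the BMP pathway's own components had a median near that of all genes, with 16 members above the all-gene median and 17 below it. Of 33 ligands, receptors, Smads and antagonists tested, 1 was higher and 11 were lower (3.03% and 33.3%), with a median log2 difference of -0.39 (0.03 without KD replicate 2 and -0.72 without KD replicate 1), or -0.04 with TMM-style scaling, so its sign rests on the library and the scaling. The ligand transcripts bmp2b and bmp4, named after their values were seen, overlapped between groups: bmp2b had 8.86 and 8.07 TPM in the KD libraries, against 9.26 and 6.58 TPM in the control-MO libraries, and bmp4 had 3.77 and 1.6 TPM in the KD libraries, against 2.78 and 3.78 TPM in the control-MO libraries. The member with the smallest p was bmp7b, a BMP7-type ligand. It stood at 2.68 and 0.841 TPM in the KD libraries, against 20.4 and 12.4 TPM in the control-MO libraries, a log2 difference of -2.70 (SE 0.57) with a limma adjusted p of 0.116 and a 20-library p of 0.0121. Every KD value of bmp7b was below every control-MO value. The secreted antagonist grem2b had 1.43 and 0.756 TPM in the KD libraries, against 3.47 and 18.2 TPM in the control-MO libraries, again without overlap. The procollagen protease gene bmp1a, which also frees BMP ligands from the antagonist Chordin, had 7.56 and 1.74 TPM in the KD libraries, against 14.6 and 15.4 TPM in the control-MO libraries. A single member went the other way: gdf3, the zebrafish vg1 ligand that pairs with Nodal to induce mesoderm, had 13 and 7.45 TPM in the KD libraries, against 2.68 and 1.41 TPM in the control-MO libraries, a log2 difference of 1.87 (SE 0.55) and a limma adjusted p of 0.238. In the TGF-beta and Nodal list, the receptor gene tgfbr1a had 4.41 and 3.39 TPM in the KD libraries, against 17.5 and 11.3 TPM in the control-MO libraries.

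BMP target genes did not all lie on one side either. Of 34 targets and feedback genes tested, 3 were higher and 14 lower (8.82% and 41.2%). Their median was -0.41 as deposited, 0.07 with TMM-style scaling, -0.51 without KD replicate 2 and -0.40 without KD replicate 1, so its sign rests on the scaling. The ventral homeobox repressor ved, a BMP-dependent gene of the gastrula, had 1.75 and 2.66 TPM in the KD libraries, against 18.4 and 14.9 TPM in the control-MO libraries. Its log2 difference was -2.47 (SE 0.52), with a limma adjusted p of 0.112 and a 20-library p of 0.0131, and it was the member furthest below the controls. The msh-type homeobox gene msx3 had 1.27 and 4.46 TPM in the KD libraries, against 7.24 and 29.1 TPM in the control-MO libraries, and the Notch and BMP effector hey2 had 0.669 and 0.736 TPM in the KD libraries, against 5.11 and 3.11 TPM in the control-MO libraries. For both genes the KD libraries lay below the control-MO libraries. Among the inhibitor-of-DNA-binding genes, the usual BMP readout, id3 had 29.6 and 56.9 TPM in the KD libraries, against 69.3 and 91.8 TPM in the control-MO libraries, without overlap. The same readout in id1 was 287 and 772 TPM in the KD libraries, against 636 and 641 TPM in the control-MO libraries, where KD replicate 2 was the highest and KD replicate 1 the lowest of the 4, and in id2a it was 50.8 and 50.5 TPM in the KD libraries, against 52 and 54.1 TPM in the control-MO libraries. The transcription factor gene gata3, induced by BMP in ventral ectoderm, was higher in KD PGCs, at 18.3 and 17.8 TPM in the KD libraries, against 7.46 and 5.92 TPM in the control-MO libraries, and cdx4, a caudal-type gene of posterior identity, had 18.6 and 8.16 TPM in the KD libraries, against 5.23 and 3.42 TPM in the control-MO libraries.

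Skeletal muscle genes had the lowest median of the 47 lists over both KD libraries. Of 49 muscle genes tested, 0 were higher and 36 lower in KD PGCs (73.5%), 1 lay above 0, and the median log2 difference was -2.15 (-1.21 without KD replicate 2 and -3.03 without KD replicate 1), or -1.86 with TMM-style scaling. The count of lower members was 36 without KD replicate 2 (73.5%, against 42% of all genes) and 48 without KD replicate 1 (98%, against 74.4%), and 16 members were called with the 20-library spread, all of them lower. Summed over the 69 members matched, the list took 795 and 154 TPM in KD and 2506 and 2192 TPM in control-MO libraries. Members listed at 0 numbered 7 and 12 in KD and 1 and 5 in control-MO libraries. In bulk RNA fewer cells of a type and less RNA per cell cannot be told apart, and the part that muscle RNA carried into the sort plays in these values was not tested.

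Genes of the sarcomere and of calcium buffering carried wide gaps. The fast troponin T gene tnnt3b had 0.749 and 0.676 TPM in the KD libraries, against 22.3 and 62.2 TPM in the control-MO libraries. Its log2 difference was -4.49 (SE 0.60), with a limma adjusted p of 0.0505 and a 20-library p of 0.00156. The KD values of tnnt3b were close to each other and far under both controls. Fast skeletal tropomyosin, tpma, had 1.38 and 2.48 TPM in the KD libraries, against 25.3 and 41.8 TPM in the control-MO libraries, a log2 difference of -3.54 (SE 0.55). The myosin light chain gene mylz3 had 4.67 and 7.15 TPM in the KD libraries, against 57.9 and 79.3 TPM in the control-MO libraries, and the alpha-actin gene actc1b had 59.3 and 18.6 TPM in the KD libraries, against 364 and 379 TPM in the control-MO libraries. In both, the highest KD value was below the lowest control-MO value by several-fold. The troponin I gene tnni2a.4 had 1.14 and 9.25 TPM in the KD libraries, against 57 and 113 TPM in the control-MO libraries. The calcium buffers of fast muscle, pvalb1 and pvalb2, are close paralogs, so the split of reads between them is uncertain. For pvalb1 the values were 1.32 and 6.45 TPM in the KD libraries, against 62.8 and 248 TPM in the control-MO libraries, a log2 difference of -4.92 (SE 0.76) and a 20-library p of 0.00028. For pvalb2 they were 2.05 and 13.6 TPM in the KD libraries, against 65.4 and 228 TPM in the control-MO libraries. Control-MO replicate 2 was the highest of the 4 libraries for both parvalbumins, and KD replicate 1 the lowest.

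The nuclear oxidative phosphorylation list, whose genes encode the respiratory chain, lay near the background as deposited. It had 28 of 91 members lower (30.8%) and 5 higher, with a median of -0.32 (-0.08 without KD replicate 2 and -0.58 without KD replicate 1), and with TMM-style scaling 11 were lower and 32 higher. With that scaling 21% of all genes were lower and 22.1% higher, so the list's place beside the background rests on the scaling. The 4 members with the smallest p were cytochrome c oxidase subunit genes. For cox5b2 the values were 38.9 and 17.9 TPM in the KD libraries, against 169 and 122 TPM in the control-MO libraries, and for cox6b1 they were 87.4 and 48.6 TPM in the KD libraries, against 329 and 237 TPM in the control-MO libraries. The paralogous subunit cox8b had 16.6 and 6.2 TPM in the KD libraries, against 85.5 and 52.7 TPM in the control-MO libraries, and cox4i1l had 0.572 and 2.43 TPM in the KD libraries, against 13 and 13.3 TPM in the control-MO libraries. None of the KD libraries overlapped the control-MO libraries in these 4 genes.

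**Figure D1:**
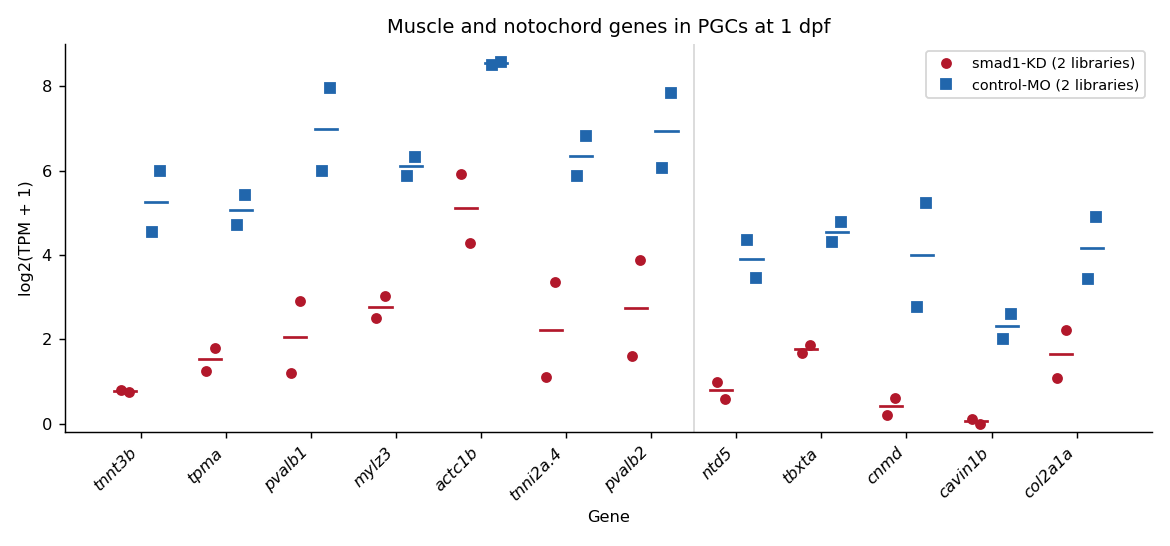
Levels of 7 skeletal muscle genes (left of the line) and 5 notochord and cartilage genes (right of it) as log2(TPM + 1), with each smad1-KD library as a circle, each control-MO library as a square and the group mean as a bar. In all 12 genes both smad1-KD libraries lie below both control-MO libraries.

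The notochord, the axial rod beneath the neural tube, gave a similar picture. Of 18 notochord and hypochord genes tested, 14 were lower (77.8%) and 1 was higher. The median log2 difference was -1.89, against -1.97 without KD replicate 2 and -1.63 without KD replicate 1, and -1.50 with TMM-style scaling. The list summed to 121 and 126 TPM in KD and 248 and 398 TPM in control-MO libraries, and the part that notochord RNA carried into the sort plays in these values was not tested. The T-box gene tbxta, which specifies notochord and tail mesoderm, had 2.21 and 2.67 TPM in the KD libraries, against 18.7 and 26.4 TPM in the control-MO libraries, a log2 difference of -2.76 (SE 0.52) and a 20-library p of 0.0225. The notochord gene ntd5 had 0.981 and 0.504 TPM in the KD libraries, against 19.3 and 9.9 TPM in the control-MO libraries, a log2 difference of -3.11 (SE 0.55). The chondromodulin gene cnmd had 0.16 and 0.526 TPM in the KD libraries, against 5.84 and 36.7 TPM in the control-MO libraries, and cavin1b, which coats caveolae of notochord cells, had 0.085 and 0 TPM in the KD libraries, against 3.03 and 5.07 TPM in the control-MO libraries. Each of these was lower in both KD libraries, and cavin1b was listed at 0 in KD replicate 2.

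Collagens and matrix genes followed, with 20 of 35 lower (57.1%), 1 higher and a median of -0.93 (-1.18 without KD replicate 2 and -0.91 without KD replicate 1). The type II collagen gene col2a1a, expressed in notochord and cartilage, had 1.13 and 3.68 TPM in the KD libraries, against 9.8 and 28.9 TPM in the control-MO libraries, a log2 difference of -2.51 (SE 0.65). The type I collagen gene col1a2 had 1.57 and 6.46 TPM in the KD libraries, against 13.1 and 31.1 TPM in the control-MO libraries, and col11a2 had 0.0272 and 0.323 TPM in the KD libraries, against 1.59 and 11.3 TPM in the control-MO libraries. Of 11 eye and lens genes, 7 were lower (63.6%) and 0 higher, with a median of -1.22 (-1.26 without KD replicate 2 and -1.37 without KD replicate 1), but their levels were low. The lens crystallin crybb1 had 0.276 and 0.367 TPM in the KD libraries, against 2.45 and 14.2 TPM in the control-MO libraries. In the neural list, 24 of 58 were lower (41.4%) and 3 higher, close to the background, with a median of -0.66 (-0.99 without KD replicate 2 and -0.42 without KD replicate 1). The radial glial lipid-binding gene fabp7a had 107 and 73.8 TPM in the KD libraries, against 335 and 326 TPM in the control-MO libraries, the zinc finger gene zic1 had 0.411 and 3.84 TPM in the KD libraries, against 14 and 14 TPM in the control-MO libraries, and the proneural gene neurod4 had 6.31 and 1.22 TPM in the KD libraries, against 10.1 and 34.5 TPM in the control-MO libraries. All 3 were lower in both KD libraries.

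Lateral plate, heart and kidney genes split: of 16, 2 were higher and 4 lower, with a median of 0.18 (0.18 without KD replicate 2 and -0.13 without KD replicate 1). The podocyte and epicardial regulator tcf21 was listed at 0 in both KD libraries and stood at 6.38 and 19.2 TPM in the control-MO libraries, and the podocyte gene wt1b had 0.753 and 0.152 TPM in the KD libraries, against 2.14 and 2.41 TPM in the control-MO libraries. The nephron tubule regulator pax8 went the other way, at 13.9 and 12.4 TPM in the KD libraries, against 4.53 and 3.02 TPM in the control-MO libraries. The sodium pump subunit gene atp1a1a.4 had 54.7 and 3.57 TPM in the KD libraries, against 0.407 and 1.12 TPM in the control-MO libraries, where KD replicate 1 alone was high. In the separate list of paraxial mesoderm genes, the forkhead gene foxc1a had 8.7 and 3.22 TPM in the KD libraries, against 20.7 and 25.6 TPM in the control-MO libraries. Skin genes showed the same mixture, 5 higher and 12 lower of 48, with a median of -0.22 (-0.40 without KD replicate 2 and -0.20 without KD replicate 1): the periderm gene icn2 had 9.83 and 34.7 TPM in the KD libraries, against 98.1 and 373 TPM in the control-MO libraries, and elf3, an epithelial ETS factor, had 7.67 and 2.04 TPM in the KD libraries, against 0.479 and 0.0742 TPM in the control-MO libraries.

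Hox genes, which give cells their position along the head-to-tail axis, divided by paralog group. This split was drawn after their values were seen, so its counts are a description. Of 25 genes of paralog groups 1 to 8, which mark head, hindbrain and trunk, 9 were higher and 1 was lower, with a median log2 difference of 0.61. Of 17 genes of groups 9 to 13, which mark the posterior trunk and tail, 0 were higher and 13 lower, with a median of -1.07. With TMM-style scaling the medians were 1.09 and -0.68, and the counts 18 higher and 0 lower in groups 1 to 8, and 0 higher and 10 lower in groups 9 to 13. With that scaling 22.1% of all genes were higher and 21% lower. The counts of the anterior set differed between the KD libraries. Without KD replicate 2, 23 of its genes were higher and 1 was lower, whereas without KD replicate 1 it had 9 higher and 9 lower, beside 31.6% of all genes higher without KD replicate 2 and 13.3% without KD replicate 1. The posterior set had 13 lower without KD replicate 2 and 16 without KD replicate 1, beside 42% and 74.4% of all genes lower in the same comparisons. Within it, groups 9 and 10 had 5 of 9 genes lower and a median of -0.66, or -0.21 with TMM-style scaling. They summed to 66 and 29.3 TPM in KD and 52.6 and 115.7 TPM in control-MO libraries, which overlap. Groups 11 to 13 had 8 of 8 lower and a median of -1.71, or -1.49 with that scaling.

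**Figure D2:**
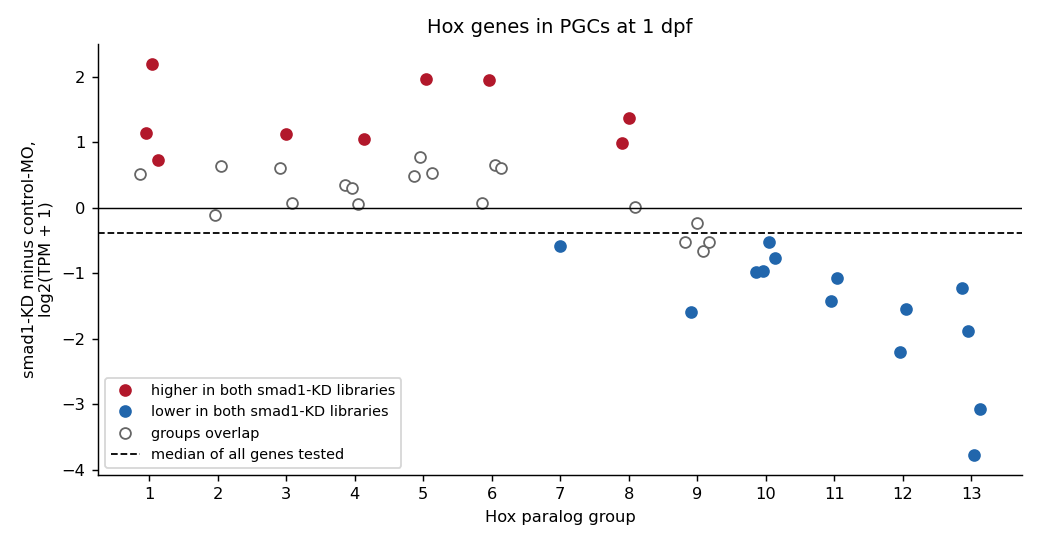
Log2 differences (smad1-KD minus control-MO, log2(TPM + 1)) of 42 Hox genes by paralog group, filled in red where both smad1-KD libraries lie above both control-MO libraries, in blue where both lie below, and open where the groups overlap. All 8 genes of groups 11 to 13 lie below 0, down to -3.77, while 9 of 25 genes of groups 1 to 8 are filled in red.

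All 8 genes of groups 11 to 13 were lower in KD PGCs, with a summed level of 1.67 and 6.99 TPM in KD and 39.81 and 51.61 TPM in control-MO libraries. In group 13, hoxb13a was listed at 0 in both KD libraries and stood at 16 and 10.01 TPM in the control-MO libraries. Its paralog hoxc13a had 0 and 0.288 TPM in the KD libraries, against 6.66 and 10.7 TPM in the control-MO libraries, a log2 difference of -3.06 (SE 0.53) with a 20-library p of 0.00661. The neighbouring hoxc12a had 0 and 2.01 TPM in the KD libraries, against 6.13 and 7.92 TPM in the control-MO libraries. At the other end, hoxb1b, a retinoic acid-responsive hindbrain gene, had 43.7 and 30.3 TPM in the KD libraries, against 7.8 and 6.5 TPM in the control-MO libraries, a log2 difference of 2.202 (SE 0.52) and a limma adjusted p of 0.14. Its cluster mates hoxb5b and hoxb6b, named after their values were seen, had 150.0 and 55.6 TPM in the KD libraries, against 26.9 and 18.8 TPM in the control-MO libraries for hoxb5b and 119 and 43.6 TPM in the KD libraries, against 16.6 and 19.1 TPM in the control-MO libraries for hoxb6b. KD replicate 1 was the highest library in each of these 3 anterior genes. The trunk gene hoxb8a had 191 and 63.6 TPM in the KD libraries, against 58.6 and 51.8 TPM in the control-MO libraries, and hoxa4a, the most abundant Hox transcript, overlapped between the groups at 632 and 236 TPM in the KD libraries, against 362 and 256 TPM in the control-MO libraries. The retinoic acid-degrading enzyme gene cyp26a1 was also higher, at 521 and 222 TPM in the KD libraries, against 100.3 and 58 TPM in the control-MO libraries, a log2 difference of 2.14 (SE 0.55).

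On the higher side, the smallest p belonged to a pigment gene. Tyrosinase, tyr, the enzyme that starts melanin synthesis, had 53.6 and 111 TPM in the KD libraries, against 4.36 and 2.48 TPM in the control-MO libraries. Its log2 difference was 4.18 (SE 0.57), with a limma adjusted p of 0.0505 and a 20-library p of 0.0116, and both KD values were more than 10 times either control-MO value. The melanosome fibril gene pmela had 16 and 33 TPM in the KD libraries, against 1.38 and 0.949 TPM in the control-MO libraries, a log2 difference of 3.48 (SE 0.56) and a 20-library p of 0.00109. The tyrosinase-related genes were higher as well. For tyrp1b the values were 13 and 53.5 TPM in the KD libraries, against 3.62 and 3.6 TPM in the control-MO libraries, and for tyrp1a they were 8.49 and 35.9 TPM in the KD libraries, against 3.5 and 2.92 TPM in the control-MO libraries. The tetraspanin tspan10, expressed in pigment cells, had 6.24 and 13.1 TPM in the KD libraries, against 0.266 and 1.15 TPM in the control-MO libraries. In all 5 genes KD replicate 2 was the highest library. The wider list of neural crest and pigment genes leaned the same way over both KD libraries. Of 30 members, 8 were higher and 5 lower (26.7% and 16.7%, against 5.57% and 34.7% of all genes). Its median was 0.32 with both KD libraries, -0.21 without KD replicate 2 and 0.67 without KD replicate 1. The medians of all genes were -0.38, -0.08 and -0.70 in the same order, so the lean of the list median rested on KD replicate 2. The list summed to 297 and 643 TPM in KD and 201 and 466 TPM in control-MO libraries, so its total overlapped between the groups.

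Several stress response genes were higher in KD PGCs. Of 38 CDK inhibitors and stress response genes tested, 15 were higher and 12 lower (39.5% and 31.6%), with a median of 0.40 (0.67 without KD replicate 2 and -0.18 without KD replicate 1). The count of higher members was 24 without KD replicate 2 (63.2%, against 31.6% of all genes) and 15 without KD replicate 1 (39.5%, against 13.3%). The ubiquitin ligase gene mdm2 had 90.9 and 91 TPM in the KD libraries, against 25.8 and 30.9 TPM in the control-MO libraries, a log2 difference of 1.65 (SE 0.49) with a limma adjusted p of 0.244. The KD libraries of mdm2 lay close to each other and above both control-MO libraries. The stress-induced sestrin gene sesn3 had 27.7 and 15.8 TPM in the KD libraries, against 6.03 and 7.79 TPM in the control-MO libraries, cyclin G1, ccng1, had 716 and 388 TPM in the KD libraries, against 254 and 262 TPM in the control-MO libraries, and the small ribosomal protein paralog rps27l had 2474 and 1639 TPM in the KD libraries, against 1284 and 1296 TPM in the control-MO libraries. KD replicate 1 was the highest library for these 3 genes. Against this run, gadd45gb.1, a growth arrest gene of somites and neurons, had 6.81 and 2.23 TPM in the KD libraries, against 63.8 and 62 TPM in the control-MO libraries, a log2 difference of -3.67 (SE 0.58) and a limma adjusted p of 0.0633. The apoptosis list did not stand apart, with 3 of 39 members higher and 10 lower. Its member with the smallest p, the executioner caspase gene casp6b.1, had 3.55 and 0.825 TPM in the KD libraries, against 27.8 and 13.6 TPM in the control-MO libraries. The comparison holds no uninjected embryos, so an effect common to both oligomers is not seen in it.

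Embryonic globins were higher in both KD libraries without exception: 10 of 10 tested, with a median of 2.27 (1.73 without KD replicate 2 and 2.90 without KD replicate 1). They summed to 58221 and 131424 TPM in KD and 39061 and 10009.9 TPM in control-MO libraries, where the gap between the control-MO libraries was itself wide. Globin genes are near-identical copies, so how reads were split among them is uncertain. The alpha-globin hbae3 had 5992 and 12179 TPM in the KD libraries, against 2440.0 and 1133 TPM in the control-MO libraries, a log2 difference of 2.36 (SE 0.45). The beta-globins hbbe3 and hbbe1.1 had 6643 and 11299.7 TPM in the KD libraries, against 3546 and 2298 TPM in the control-MO libraries for hbbe3 and 15669 and 35295 TPM in the KD libraries, against 9631 and 2974 TPM in the control-MO libraries for hbbe1.1. With the 20-library spread the adjusted p of hbae3 was 0.505, so it passed neither test. Red cell genes outside the globin loci were less even, 14 higher and 3 lower of 31 (45.2% and 9.68%), with a median of 0.61 (0.47 without KD replicate 2 and 0.86 without KD replicate 1). Summed over the 32 members matched, the list took 806 and 1063 TPM in KD and 878 and 974 TPM in control-MO libraries. Its total therefore overlapped between the groups. The anion exchanger slc4a1a of the red cell membrane had 23.2 and 35 TPM in the KD libraries, against 7.75 and 8.2 TPM in the control-MO libraries, with a 20-library p of 0.019. The carbonic anhydrase genes cahz and ca2 had 41.6 and 77.6 TPM in the KD libraries, against 21.4 and 9.56 TPM in the control-MO libraries for cahz and 18 and 48.5 TPM in the KD libraries, against 4.57 and 10.6 TPM in the control-MO libraries for ca2. The mitochondrial heme synthesis factor tmem14ca was lower instead, at 298 and 231 TPM in the KD libraries, against 610.4 and 519.8 TPM in the control-MO libraries. Globins and erythroid genes are markers of blood cells, and the part of such cells in other differences was not tested.

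**Figure D3:**
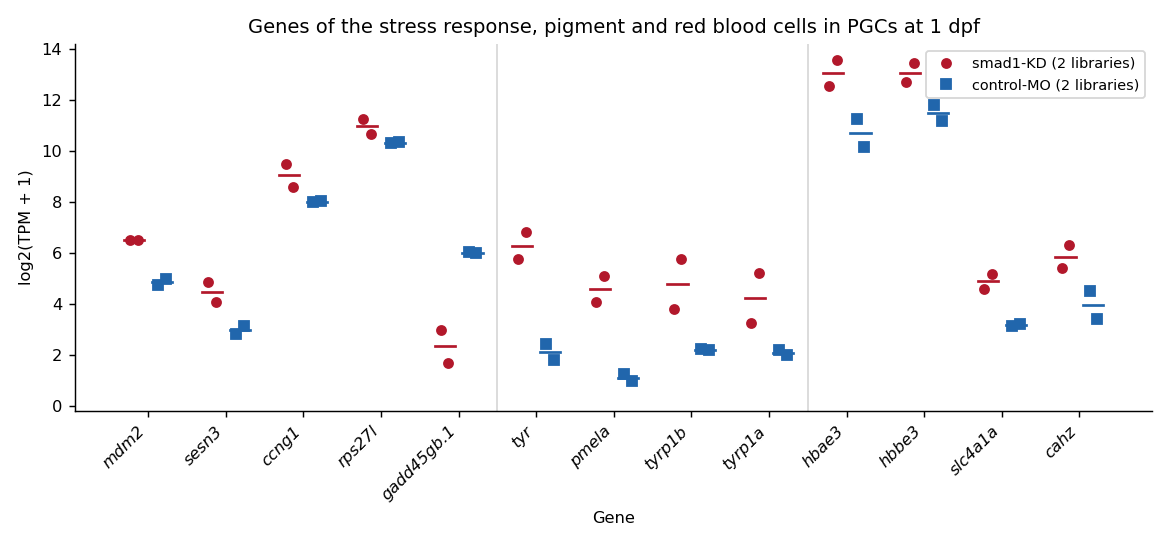
Levels of 5 stress response genes, 4 pigment genes and 4 red blood cell genes (separated by lines) as log2(TPM + 1), with each smad1-KD library as a circle, each control-MO library as a square and the group mean as a bar. Both smad1-KD libraries lie above both control-MO libraries in 12 of the 13 genes, and below them in gadd45gb.1.

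Germ cell genes were read against the replicate split described above. Of 36 germ plasm and germ cell fate genes tested, 1 was higher and 14 lower (2.78% and 38.9%), a share near the background, with a median of -0.57 (-0.18 without KD replicate 2 and -1.17 without KD replicate 1). The translational regulator dazl had 80.4 and 22.3 TPM in the KD libraries, against 200.1 and 121 TPM in the control-MO libraries, a log2 difference of -1.85 (SE 0.64). The microRNA-antagonist gene dnd1 and the helicase gene ddx4 (vasa) were named after their values were seen. For dnd1 they were 86.2 and 31.3 TPM in the KD libraries, against 183 and 82.9 TPM in the control-MO libraries, and for ddx4 they were 215 and 77.2 TPM in the KD libraries, against 166 and 148 TPM in the control-MO libraries. In dnd1 the groups overlapped, and in ddx4 KD replicate 1 was the highest of the 4 libraries.

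The piRNA pathway, which silences transposons in the germline through small RNAs bound to Piwi proteins, was taken as a list of its own. Of 20 members, 11 of which also stand in the germ plasm list, 14 were lower (70%), 0 higher and 0 above 0, with a median of -1.07, or -0.71 with TMM-style scaling. The median was -0.50 without KD replicate 2 and -1.69 without KD replicate 1. The Piwi gene piwil1 had 11 and 4.02 TPM in the KD libraries, against 28.8 and 25.7 TPM in the control-MO libraries, a log2 difference of -1.86 (SE 0.58). The co-chaperone gene fkbp6, needed for piRNA production in mouse, had 2.02 and 1.65 TPM in the KD libraries, against 12.2 and 16.1 TPM in the control-MO libraries, a log2 difference of -2.41 (SE 0.52) and a limma adjusted p of 0.117. The KD libraries did not overlap the controls in either gene. The methyltransferase henmt1, which methylates the 3' ends of piRNAs, had 36.7 and 7.36 TPM in the KD libraries, against 108 and 54 TPM in the control-MO libraries. In mouse, the products of gpat2 and pld6 act at the mitochondrial surface where piRNAs are processed. Their transcripts had 3.62 and 1.61 TPM in the KD libraries, against 15.5 and 9.89 TPM in the control-MO libraries for gpat2 and 43.5 and 10.7 TPM in the KD libraries, against 111 and 52.3 TPM in the control-MO libraries for pld6. In each of these 3 genes KD replicate 2 was the lowest library. The cytoplasmic granule gene tdrd7a did not follow, at 74.7 and 28.2 TPM in the KD libraries, against 75.6 and 31.8 TPM in the control-MO libraries, which tracks the replicate number. The germline knockout had a piRNA list median of -0.24, with 6 of 20 members above 0.

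Of 75 G1/S and DNA replication genes, 49 were lower (65.3%) and 0 higher, with a median of -0.61 (-0.49 without KD replicate 2 and -0.67 without KD replicate 1), or -0.16 with TMM-style scaling. Of 97 G2/M and mitosis genes, 43 were lower (44.3%) and 2 higher, with a median of -0.50 (-0.53 without KD replicate 2 and -0.42 without KD replicate 1), or -0.06 with TMM-style scaling. With TMM-style scaling 15 G1/S members were lower and 8 higher, and 12 G2/M members were lower and 8 higher. The background with that scaling was 21% lower and 22.1% higher, so the excess of lower members rests on the scaling. Without KD replicate 1 both medians lay above the -0.70 of all genes. The D-type cyclin gene ccnd3 had 0.539 and 0.54 TPM in the KD libraries, against 10.1 and 5 TPM in the control-MO libraries, a log2 difference of -2.41 (SE 0.54). The E-type cyclin ccne2 had 4.71 and 4.39 TPM in the KD libraries, against 11.2 and 19.1 TPM in the control-MO libraries, and the replication clamp pcna had 161 and 236 TPM in the KD libraries, against 316 and 519 TPM in the control-MO libraries. Each of these was below both controls in both KD libraries. The primase subunit prim2 had 3.26 and 6.69 TPM in the KD libraries, against 15.5 and 21.7 TPM in the control-MO libraries, and the licensing inhibitor gmnn had 16.1 and 10.8 TPM in the KD libraries, against 36.4 and 35.6 TPM in the control-MO libraries. Among mitotic genes, the microtubule-destabilizing stathmin gene stmn1a had 112 and 77.9 TPM in the KD libraries, against 326 and 379 TPM in the control-MO libraries, a log2 difference of -1.90 (SE 0.46) and a 20-library p of 0.00851. The chromosomal passenger gene birc5b had 1.02 and 0.511 TPM in the KD libraries, against 6.88 and 6.07 TPM in the control-MO libraries, and cdca7a had 13.7 and 12.8 TPM in the KD libraries, against 37.4 and 67 TPM in the control-MO libraries.

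The list of DNA methylation and chromatin genes had 15 of 43 lower (34.9%), close to the background, with a median of -0.26 (-0.09 without KD replicate 2 and -0.49 without KD replicate 1). Its 4 members with the smallest p encode high-mobility-group proteins, which bind DNA or nucleosomes. The gene hmgb1b had 109 and 70.0 TPM in the KD libraries, against 313 and 325 TPM in the control-MO libraries, a log2 difference of -1.86 (SE 0.47) and a 20-library p of 0.00141. For hmgb2b the values were 1089 and 519 TPM in the KD libraries, against 2187 and 1796 TPM in the control-MO libraries, with a 20-library p of 0.0105. The nucleosome-binding gene hmgn2 had 142 and 254 TPM in the KD libraries, against 489 and 969 TPM in the control-MO libraries, and hmgb2a had 3.23 and 26.7 TPM in the KD libraries, against 87.3 and 104 TPM in the control-MO libraries. None of the 4 overlapped between groups.

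Of 29 glycolysis genes, 13 were lower (44.8%) and 0 higher, with a median of -0.67 (-0.67 without KD replicate 2 and -0.92 without KD replicate 1). With TMM-style scaling the glycolysis median was -0.24, with 1 member higher and 9 lower, beside 22.1% of all genes higher and 21% lower. The aldolase aldoaa had 267 and 182 TPM in the KD libraries, against 522 and 462 TPM in the control-MO libraries, with a 20-library p of 0.0477, and the lactate dehydrogenase ldhbb had 6.87 and 2.7 TPM in the KD libraries, against 28 and 17.2 TPM in the control-MO libraries. Cytosolic ribosomal protein genes were lower in 59 of 80 cases (73.8%), but their median of -0.45 (-0.28 without KD replicate 2 and -0.62 without KD replicate 1) became 0.04 with TMM-style scaling. Within them rpl3 lay further down, at 939 and 695 TPM in the KD libraries, against 1832 and 2038 TPM in the control-MO libraries, a log2 difference of -1.26 (SE 0.36) and a 20-library p of 0.0174, and rps20 had 6845 and 4949 TPM in the KD libraries, against 9436 and 11639 TPM in the control-MO libraries. In the translation factor list 34 of 77 were lower (44.2%), with a median of -0.52 (-0.14 without KD replicate 2 and -0.90 without KD replicate 1). With TMM-style scaling its median was -0.08, with 18 members higher and 18 lower, near the 22.1% and 21% of all genes. The eIF3 subunit gene eif3hb had 0.995 and 0.804 TPM in the KD libraries, against 24.8 and 20.5 TPM in the control-MO libraries, a log2 difference of -3.63 (SE 0.51) with a limma adjusted p of 0.0505 and a 20-library p of 0.0105. The elongation factor eef1b2 had 159.9 and 156 TPM in the KD libraries, against 391 and 473 TPM in the control-MO libraries. Transcripts of the mitochondrial genome had 13 of 35 members higher (37.1%) and a median of 0.19 (0.14 without KD replicate 2 and 0.29 without KD replicate 1), and the abundant mt-co2 overlapped between the groups at 3434 and 4375 TPM in the KD libraries, against 3069 and 3586 TPM in the control-MO libraries.

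**Figure D4:**
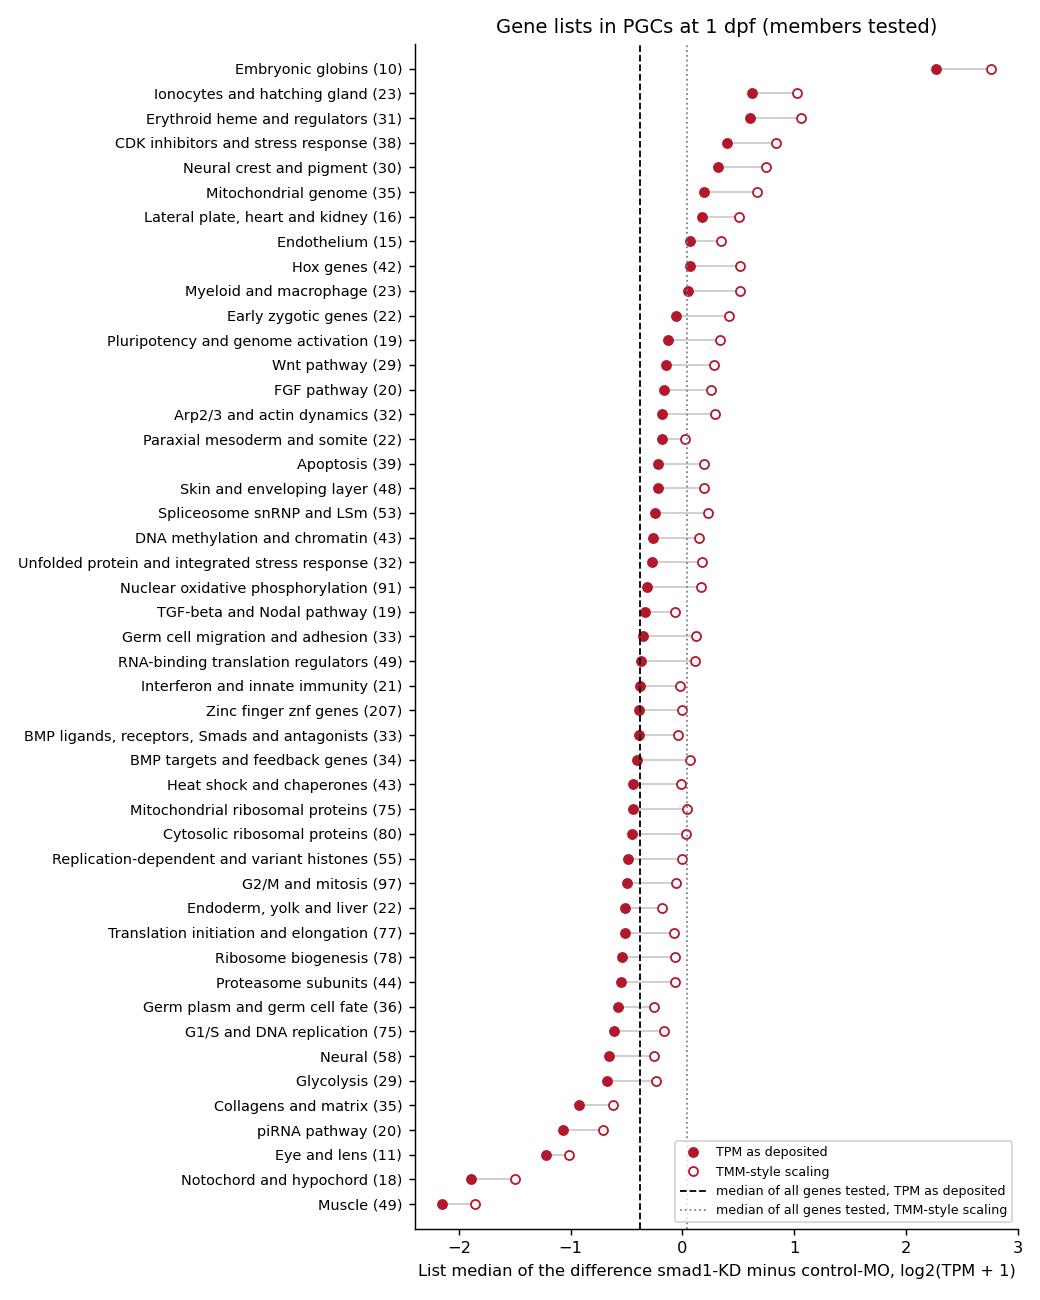
Median log2 difference (smad1-KD minus control-MO, log2(TPM + 1)) of 47 gene lists, with the number of members tested in brackets, as deposited (filled) and with TMM-style scaling (open), beside the medians of all genes (lines at -0.38 and 0.04). Muscle (-2.15) and notochord (-1.89) lie lowest and the embryonic globins (2.27) highest, and most lists lie close to the median of all genes.

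The remaining genes with the smallest p did not come from a single list. The synaptic adhesion gene nrxn3a had 0.707 and 0.83 TPM in the KD libraries, against 35.2 and 28.8 TPM in the control-MO libraries, a log2 difference of -4.22 (SE 0.51), the smallest unadjusted p in the comparison and a 20-library p of 0.0616. The neuronal alpha-catenin gene ctnna2 had 3.91 and 1.48 TPM in the KD libraries, against 67.7 and 46.8 TPM in the control-MO libraries, a log2 difference of -4.04 (SE 0.56) and a 20-library p of 0.0243. The Hairy-type repressor gene hes2.2 had 0.287 and 0.265 TPM in the KD libraries, against 15 and 22.3 TPM in the control-MO libraries, a log2 difference of -3.92 (SE 0.52). In all 3, each KD value was at least 10 times below either control-MO value. A gene annotated as an immunoglobulin segment, ighv14-1, was listed at 0 in both KD libraries and had 11.9 and 17 TPM in the control-MO libraries. The DNA repair gene palb2, a partner of BRCA2, had 3.08 and 2.37 TPM in the KD libraries, against 54.8 and 39.9 TPM in the control-MO libraries, and the mitochondrial inner membrane peptidase gene immp2l had 2.06 and 0.468 TPM in the KD libraries, against 33.8 and 24.9 TPM in the control-MO libraries. Both were more than 10 times lower in KD PGCs. On the higher side, the ankyrin repeat gene anks1aa had 48.1 and 23.2 TPM in the KD libraries, against 1.38 and 2.76 TPM in the control-MO libraries, a log2 difference of 3.53 (SE 0.58), and the secreted proteoglycan spock1 had 66.2 and 15.8 TPM in the KD libraries, against 3.16 and 3.01 TPM in the control-MO libraries, a log2 difference of 3.04 (SE 0.67) and a 20-library p of 0.0144. The secreted Wnt inhibitor dkk1b had 6.57 and 45.6 TPM in the KD libraries, against 2.01 and 0.669 TPM in the control-MO libraries, where KD replicate 2 was far the highest. In its list, the Wnt pathway, 4 of 29 members tested were higher and 7 lower (13.8% and 24.1%). The signalling regulator rgs4 had 13.3 and 15.8 TPM in the KD libraries, against 1.04 and 4.36 TPM in the control-MO libraries, the ataxin gene atxn7 had 18.6 and 9.93 TPM in the KD libraries, against 2.18 and 3.06 TPM in the control-MO libraries, and the ubiquitin ligase gene lnx1 had 28.7 and 13.1 TPM in the KD libraries, against 4.01 and 4.16 TPM in the control-MO libraries.

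Several regulators of early development and migration also lay apart. The chemokine gene cxcl12a, whose product guides PGCs and which somatic cells secrete, had 5.51 and 6.75 TPM in the KD libraries, against 21.5 and 66.9 TPM in the control-MO libraries, a log2 difference of -2.46 (SE 0.62). Both KD libraries were below both controls. The RNA-binding gene lin28a, which blocks maturation of let-7 microRNAs, had 221 and 145 TPM in the KD libraries, against 55.7 and 90.3 TPM in the control-MO libraries, a log2 difference of 1.32 (SE 0.50). The Krüppel-like gene klf17, expressed in hatching gland precursors, had 57 and 39.5 TPM in the KD libraries, against 3.34 and 23.8 TPM in the control-MO libraries, and the Myc paralog myca had 5.06 and 4.57 TPM in the KD libraries, against 20.01 and 18 TPM in the control-MO libraries. None of these passed the test, and the list of germ cell migration and adhesion genes had 3 of 33 higher and 9 lower (9.09% and 27.3%).

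The KD difference can be set against that of the germline knockout at the same stage, which shares no control library with it. The 2 experiments were deposited in separate tables, so each difference was taken within its table and the 2 differences were then compared over 10 libraries. The limma contrast called 33 of 17965 genes (0.184%). The KD difference was the lower one in 32 of them (0.178%) and the higher one in 1 (0.00557%), and 1774 genes (9.87%) had an unadjusted p under 0.05. The median of all genes in this contrast was -0.38, the shift of the KD comparison itself, and with TMM-style scaling, which set it to -0.02, the contrast called 6 genes, 5 lower and 1 higher. The number of calls varied with the library left out, in the KD as in the control-MO group. The median of all genes in the contrast was -0.39 without either control-MO replicate, -0.10 without KD replicate 2 and -0.69 without KD replicate 1. The knockout on its own called 1 of 17573 genes (0.00569%), smad1.

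The clearest departures were genes that lay far down in the knockdown and level in the knockout. For palb2 the levels of 3.08 and 2.37 TPM in KD and 54.8 and 39.9 TPM in control-MO libraries stood beside 87.3, 75.8 and 64.4 TPM in cKO and 71.3, 67.1 and 89.8 TPM in control libraries. The contrast for palb2 was -3.68 (SE 0.40), with a limma adjusted p of 0.00992. The gene ndrg3b, of the N-myc downstream-regulated family, had 11.2 and 7.74 TPM in KD and 112 and 92.7 TPM in control-MO libraries, beside 66.4, 78.6 and 75.8 TPM in cKO and 70.24, 72.8 and 77.6 TPM in control libraries. Its contrast was -3.31 (SE 0.36), with a limma adjusted p of 0.00992. In both genes the KD libraries lay below all other libraries, while the control-MO libraries lay below the cKO and control ones for palb2 and above them for ndrg3b. The double-stranded-RNA-binding gene stau2 behaved likewise, with 15.4 and 13.3 TPM in KD and 110.2 and 104 TPM in control-MO libraries and a contrast of -2.93 (limma adjusted p of 0.0217). For supt3h, a subunit of the SAGA coactivator, the contrast was -3.28, and for the formin gene daam1a of planar cell polarity signalling it was -3.34. With TMM-style scaling 3 of the 6 genes of smallest p with an assigned symbol remained called, and 5 with quantile normalization. Both settings kept every library, so they do not show how far a call rests on a single control-MO library.

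Genes described above recur among the 33. The muscle genes tpma and mylz3 had contrasts of -3.58 and -3.43, the notochord gene ntd5 -4.40, and the BMP target ved -3.14. In the knockout's control libraries mylz3 had 8.77, 8.23 and 7.2 TPM and ntd5 0.295, 1.01 and 0 TPM. Both genes thus stood near their KD levels there, below both control-MO libraries. For tpma the values were 12.9, 7.69 and 11.6 TPM, between KD and control-MO, and for ved 139, 66.4 and 125 TPM, above both. Levels were not tested across the separate tables. The chromatin gene hmgb1b stood at -1.81 and the stathmin gene stmn1a at -1.78. For nusap1 and hey2 the differences were well apart on either side of 0. The spindle gene nusap1 had a log2 difference of -1.32 in the knockdown and 1.94 in the knockout, a contrast of -3.26. The BMP and Notch effector hey2 had -1.56 in the knockdown and 1.99 in the knockout, a contrast of -3.55. The pigment gene pmela was the only one of the 33 that was higher in the knockdown, with 3.48 there and -0.73 in the knockout. With TMM-style scaling its contrast was not called, at a limma adjusted p of 0.0607. The knockdown was thus the lower of the 2 experiments in nusap1 and hey2 and the higher in pmela.

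**Figure D5:**
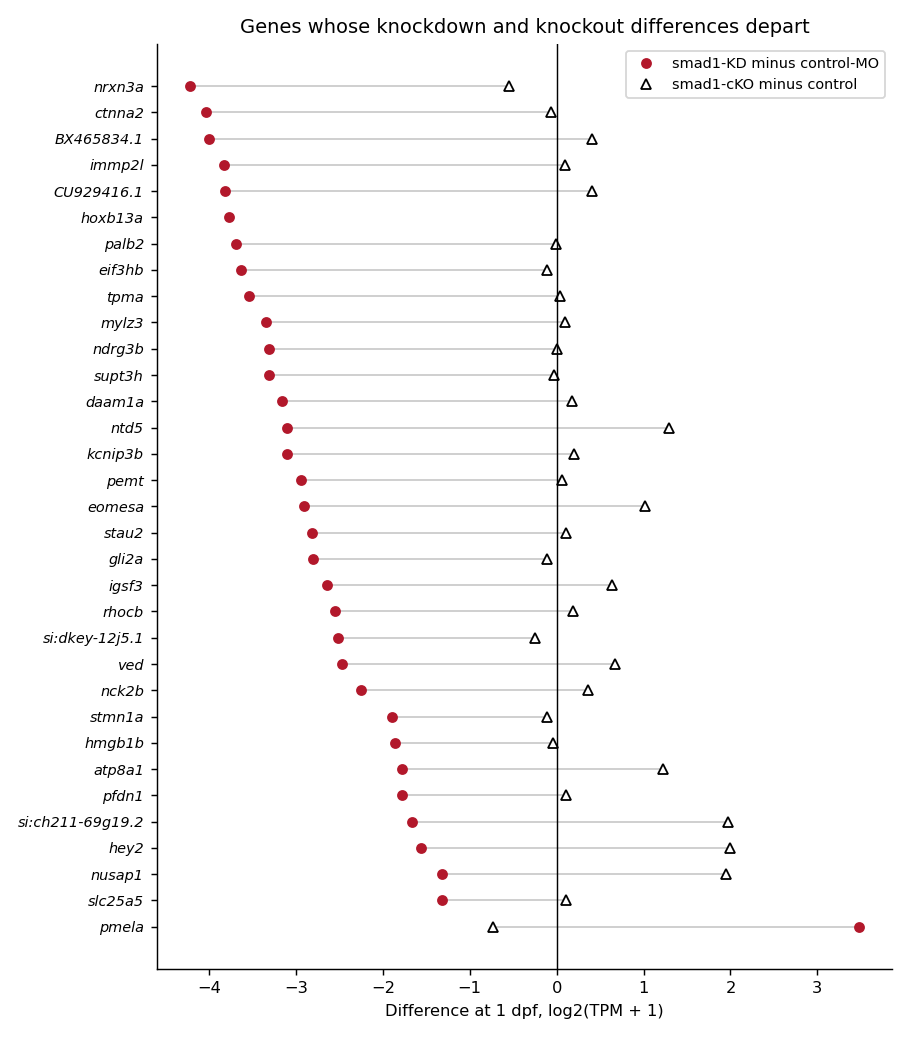
Log2 differences at 1 dpf, on log2(TPM + 1), of the 33 genes whose contrast between the experiments passed the limma test, for smad1-KD minus control-MO (circles) and smad1-cKO minus control (triangles). No triangle is drawn for hoxb13a, which was too low to be tested in the knockout. For 32 genes the circle lies left of the triangle or alone, and for pmela it lies to the right.

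List medians of both experiments are given side by side, without a test of the lists. The median of all genes was -0.38 in the knockdown and -0.01 in the knockout, so the 2 columns of values have different baselines. Fewer members were tested in the knockout for muscle (35 against 49), collagens (25 against 35) and globins (8 against 10). Muscle stood at -2.15 in the knockdown and 0.38 in the knockout, and collagens at -0.93 and 0.32. G2/M genes stood at -0.50 in the knockdown, or -0.06 with TMM-style scaling. In the knockout they stood at 0.99, with 91 of 97 members above 0. The globins were at 2.27 in the knockdown and 2.39 in the knockout, and the stress response at 0.40 and 0.68, where the knockdown value was -0.18 without KD replicate 1. The other red cell genes stood at 0.61 in the knockdown and -0.21 in the knockout, where 7 of 21 were above 0.

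The same morpholinos had been examined at 75% epiboly, during gastrulation. The limma contrast between the KD difference at 1 dpf and that at 75% epiboly called 0 of 16311 genes (0%). An unadjusted p under 0.05 was found for 695 (4.26%), no larger a share than that threshold gives when no gene differs. BMP targets had a median of -1.32 over 29 members at 75% epiboly, where the median of all genes was -0.06. At 1 dpf their median was -0.41 over 34 members, close to the -0.38 of all genes. The target ved was lower in both KD libraries at both stages: it had 1.75 and 2.66 TPM in the KD libraries, against 18.4 and 14.9 TPM in the control-MO libraries at 1 dpf, and 347 and 113 TPM in KD against 969 and 668 TPM in control-MO libraries at 75% epiboly. Another target, gata3, had a log2 difference of 1.31 at 1 dpf and -2.34 at 75% epiboly. Other genes had opposite signs at the 2 stages, pax8 with 1.58 at 1 dpf and -2.94 at 75% epiboly, and birc5b with -2.10 at 1 dpf and 3.55 at 75% epiboly. The limma adjusted p of both contrasts was 0.695, so neither stage difference passed the test.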

How the data were processed

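RNA of sorted PGCs was compared between 2 smad1-KD and 2 control-MO libraries at 1 dpf, grouped by their titles. The authors deposited TPM per gene, 1 column per library, and the submitters' processing notes list the build GRCz11 (danRer11) and the tools StringTie 2.2.1 and STAR 2.7.10b, with no role for either tool. Annotation version, filters and strand handling are not stated there. TPM keep no depth, so no interval for counting error was computed, and values of overlapping or near-identical genes depend on how the authors' tools divided reads. Of 32520 features, 896 had no name and were not named in the text.

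From the deposited TPM, log2(TPM + 1) was computed, with a pseudocount of 1, which understates changes of low genes. Genes with a mean of at least 1 TPM over the libraries of a fit were tested with limma 3.58.1 (R 4.3.3) with an intensity trend, two-sided, with Benjamini-Hochberg adjustment at 0.05. Differences between experiments or stages were contrasts over 10 or 8 libraries, since the tables were processed separately. Scripts were tested on simulated data. Figures used matplotlib 3.10.9 under Python 3.11.15.

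The members and the 47 gene lists were chosen with earlier results of these data known, and lists are described by counts and medians without a test. Named genes are smad1, smad5 and smad9, the 15 higher and 15 lower genes of smallest unadjusted p, the 10 higher and 10 lower of largest difference (assigned symbol, mean TPM of at least 5, groups not overlapping), from each list the 4 members of smallest p and the 3 of highest level at most, and for each contrast at most 6 genes by p with an assigned symbol. A few genes are not reported here and were left out of the lists. A gene outside this rule is said to have been named after its values were seen. Tried as alternatives were TMM-style scaling, quantile normalization, a pseudocount of 0.1, a minimum mean of 5 TPM or none, no intensity trend, rescaling without 64 abundant ribosomal, mitochondrial and globin features, a replicate block, the spread of all 20 RNA libraries and leaving out each library. Counts of list members without each KD library were added after seeing the data. TMM-style scaling trimmed 30% of log ratios and 5% of mean levels at each end.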

Additional observations from a re-analysis of the deposited data

Results flagged for a closer look

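The results here were singled out because the difference in the knockdown and the difference in the germline knockout departed from each other at 1 dpf by a test of that departure itself, the limma contrast over 10 libraries. It called 33 genes at an adjusted p of 0.05, and each value below is the KD difference minus the cKO difference on the log2(TPM + 1) scale.

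Among genes with an assigned symbol, those with the smallest p were palb2 (-3.68), ndrg3b (-3.31), rhocb (-2.74), stau2 (-2.93), supt3h (-3.28) and daam1a (-3.34). Their knockdown differences lay between -3.69 and -2.55, and their knockout differences between -0.03 and 0.19. A feature known only by a clone name, si:ch211-69g19.2, lay among them in p at -3.63, with -1.66 in the knockdown and 1.97 in the knockout. Muscle genes were tpma at -3.58 and mylz3 at -3.43, and the notochord gene ntd5 stood at -4.40, where the knockout difference was 1.29. For mylz3 and ntd5 the control libraries of the knockout lay near the KD libraries and below the control-MO libraries. The neuronal adhesion genes ctnna2 and nrxn3a had -3.97 and -3.66. The translation factor gene eif3hb had -3.52 and the mitochondrial peptidase gene immp2l -3.92.

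Genes of proliferating cells and chromatin were nusap1 at -3.26, stmn1a at -1.78 and hmgb1b at -1.81. Only nusap1 of these 3 had opposite signs in the experiments, -1.32 in the knockdown and 1.94 in the knockout. The BMP-responsive genes were ved at -3.14 and hey2 at -3.55. The posterior Hox gene hoxb13a had -3.77, a value that depends on the pseudocount because the gene was listed at 0 in both KD libraries. It was also listed at 0 in every cKO and control library, so its contrast restates the knockdown difference and compares no knockout value. The single gene on the higher side was pmela at 4.21, with 3.48 in the knockdown and -0.73 in the knockout. Of the genes named in this section, only palb2, ndrg3b, daam1a, immp2l and hmgb1b remained called with TMM-style scaling. The limma adjusted p of pmela was 0.0607 with that scaling. No cause of these departures was tested. The experiments also differed in deposited table, delivery and number of libraries, which cannot be told apart from the way smad1 was removed.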

How the results depend on the processing

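The 0 genes called in the knockdown became 43 with a minimum mean of 5 TPM, 10 with no intensity trend and 259 with the spread of all 20 RNA libraries, and 0 with the other scalings, pseudocount and filter. Leaving out a single library gave 0 to 41 calls, with 41 without control-MO replicate 1 and 5 without control-MO replicate 2. The fit with the replicate block called 866 genes, but it leaves a single residual degree of freedom per gene. Same-numbered libraries deviated from their group means with a correlation of 0.601. With 2 libraries per group, the opposite pairing gives the same size with the opposite sign, so 1 of the 2 pairings had to come out positive. The labels tie the numbers to no clutch or day, so same-numbered libraries share only a number. This pairing is a hint from the data, not the design.

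For the contrast of knockdown and knockout, 33 calls became 59 with a minimum mean of 5 TPM, 51 with a pseudocount of 0.1, 6 with TMM-style scaling and 6 with no intensity trend, and lay between 0 and 1411 when a single library was left out. For the contrast of stages, 0 became 1 with a minimum mean of 5 TPM and 1 with a pseudocount of 0.1, a feature known only by a clone name. The smad1 difference stayed below 0 and past no threshold in every alternative.

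Among the named genes, smad5, id1 and 9 others changed sign. The smad5 difference was 0.31 with TMM-style scaling, 0.22 with quantile normalization, 0.14 without the abundant features, and between -0.60 without KD replicate 1 and 0.28 without KD replicate 2. The id1 difference was 0.051 with TMM-style scaling, and between -1.15 without KD replicate 2 and 0.27 without KD replicate 1. The bmp2b difference, 0.10 over all libraries, was between -0.12 without control-MO replicate 2 and 0.32 without control-MO replicate 1 when a library was left out. The bmp4 difference, -0.27 over all libraries, was 0.069 with TMM-style scaling, 0.13 with quantile normalization and between -0.71 without KD replicate 1 and 0.17 without KD replicate 2 when a library was left out. The ca15b difference, 0.55 over all libraries, was between -1.53 without control-MO replicate 2 and 2.62 without control-MO replicate 1 when a library was left out. The ddx4 difference, -0.28 over all libraries, was 0.21 with TMM-style scaling, 0.11 with quantile normalization, 0.031 without the abundant features and between -1.01 without KD replicate 1 and 0.45 without KD replicate 2 when a library was left out. The hoxa4a difference, 0.34 over all libraries, was between -0.36 without KD replicate 1 and 1.05 without KD replicate 2 when a library was left out. The id2a difference, -0.065 over all libraries, was 0.42 with TMM-style scaling, 0.30 with quantile normalization and 0.24 without the abundant features. The nanos3 difference, -0.23 over all libraries, was 0.26 with TMM-style scaling, 0.085 without the abundant features and between -1.35 without KD replicate 1 and 0.89 without KD replicate 2 when a library was left out. The tdrd7a difference, -0.093 over all libraries, was 0.38 with TMM-style scaling, 0.32 with quantile normalization, 0.21 without the abundant features and between -0.78 without KD replicate 1 and 0.59 without KD replicate 2 when a library was left out. The tmsb4x difference, 0.24 over all libraries, was -0.29 with quantile normalization and between -1.82 without KD replicate 2 and 2.30 without KD replicate 1 when a library was left out. The cause was not tested. Rescaling without the abundant features left no globin or mitochondrial list to summarise. Depth is unknown, so what it limits cannot be given.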
